A study of Mus musculus with 28 samples.

Results

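Sham-operated mice that had received the gut bacterium Oxalobacter formigenes (Oxf) were compared with those sham-operated vehicle mice whose hearts stood nearest to them in clock gene levels. The comparison held 9 of the 28 libraries of the series, each from the ventricular myocardium of 1 mouse. The Oxf group was made of mice 921, 923, 925, 927 and 929, and the vehicle group of mice 907, 908, 909 and 910, taken from 10 vehicle mice numbered 901 to 910. The 4 vehicle mice had been picked from measured values, namely high levels of Dbp, Tef and Per1 and low levels of Arntl and Npas2. All 9 were adult male C57BL/6 mice, sham-operated at 6 weeks of age, and all ate a diet with added hydroxyproline (1%) and calcium (0.5%). The gavage on day 7 was a single dose of Oxf in 200 µl of culture medium, or that medium alone. Hearts were perfused with saline before collection, and the hour of collection is not given in the sources used here. The design planned 10 mice in each group. The 28 libraries include 5 from sham Oxf mice, all used here, and the reason for the lower number is not given in the sources used here. Mouse number, gavage group and clock phase are tied together, so they cannot be told apart by any choice of vehicle mice.

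Oxf is an anaerobic gut bacterium that lives on oxalate, and hydroxyproline in the diet is a precursor of oxalate. The circadian clock of heart cells is a feedback loop. ARNTL pairs with CLOCK or NPAS2 and activates Per, Cry, Nr1d and Dbp genes through E-box elements. The PER and CRY proteins then repress that pair, and the NR1D proteins repress Arntl through another element, so that Arntl and Dbp peak at opposite times of day. Many metabolic and ion channel genes of the heart follow the same daily rhythm.

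The 9 libraries held the usual profile of ventricle. The summed level of 10 ventricular cardiomyocyte markers was 55089 to 69596 CPM (a gene's counts relative to the scaled library size, on the usual scale) in the Oxf mice and 57023 to 65225 CPM in the vehicle mice. The total was 31.2 ± 6.94 M counts (M, mega) in the Oxf mice (SD, n = 5) and 43.8 ± 8.06 M in vehicle mice 907 to 910 (n = 4), and the ranges, 19.8 to 36.9 and 35.3 to 51.3 M, overlapped. The library of mouse 921 stood apart. It listed 15879 genes with at least 1 count, where the other 8 libraries listed 30306 to 33995, and it had the lowest total. The 7SL RNA, a short and abundant RNA of the signal recognition particle, took 10.3% of the counts of mouse 921 and 1.83% to 3.66% of the counts of the other 4 Oxf mice, against 5.33% to 12.5% in the 4 vehicle mice. In two-sided exact permutation tests over every assignment of the 9 mice, total counts (difference -12.54 M) and the 7SL share (difference -5.35 percentage points) each gave p = 0.0476, or 0.0952 adjusted over 4 library measures. The number of genes with a count (exact permutation p 0.206) and the mitochondrial share (exact permutation p 0.381) gave larger values, and the smallest p possible here was 0.0159. Values without mouse 921 are given beside those results that this library moved most.

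**Figure D1:**
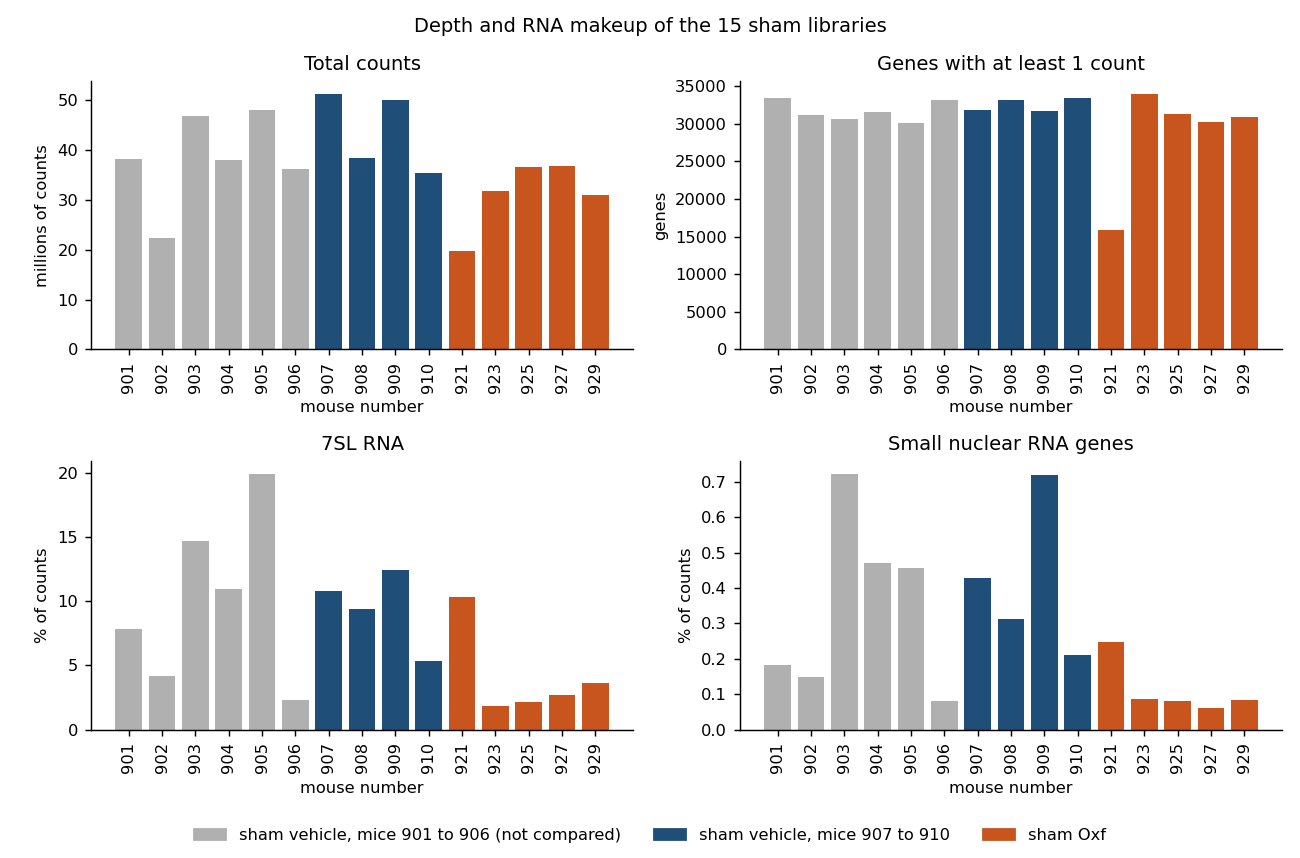
Total counts (in M), genes with at least 1 count, 7SL RNA and small nuclear RNA genes (both in % of counts) in each of the 15 sham libraries, with 1 bar per mouse and colours for the groups. Mouse 921 has 15879 genes with a count, and the other 4 Oxf mice have 7SL shares of 1.83% to 3.66%, below the 5.33% to 12.5% of vehicle mice 907 to 910.

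The clock genes that chose the vehicle mice are described first, without tests. Dbp, a transcription factor of the clock output, was at 60.1, 78.6, 95.1 and 76.1 CPM in vehicle mice 907, 908, 909 and 910. It was at 63.1, 96.0, 129.6, 105.4 and 106.2 CPM in Oxf mice 921, 923, 925, 927 and 929. Mouse 921 lay within the vehicle range and 4 Oxf mice lay above it, whereas vehicle mice 901 to 906 were at 24.1 to 59.7 CPM. Tef, a relative of Dbp, was at 98.0, 140.7, 178.4 and 154.1 CPM in the 4 vehicle mice and at 85.5, 162.8, 189.4, 237.1 and 258.6 CPM in the Oxf mice. Per1, a repressor of the loop, was at 113, 161, 243 and 176 CPM in the vehicle mice and at 109, 224, 209, 273 and 280 CPM in the Oxf mice. For both genes mouse 921 was below every chosen vehicle mouse and mice 927 and 929 were above all of them.

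Arntl, the activator of the loop, was at 8.94, 6.85, 3.65 and 4.62 CPM in the chosen vehicle mice and at 2.51, 5.02, 2.15, 1.59 and 1.93 CPM in the Oxf mice. Only mouse 923 lay within the vehicle range, and vehicle mice 901 to 906 were at 10.6 to 27.4 CPM. Npas2, which can stand in for CLOCK, was at 3.61, 4.47, 3.20 and 4.54 CPM in the vehicle mice and at 5.31, 3.31, 2.98, 3.03 and 3.10 CPM in the Oxf mice. Here mouse 921 was the highest of the 9.

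The match was therefore partial. A clock score, the mean log2 CPM of 11 genes of the Dbp side minus that of 5 genes of the Arntl side, was 2.38 to 3.84 in vehicle mice 907 to 910 and 2.97 to 4.11 in the Oxf mice. Mouse 906, the nearest mouse left out, was at 2.04, and mouse 907, the nearest one included, at 2.38. These 2 mice had almost the same Dbp level (59.7 and 60.1 CPM). Per1 in mouse 907 (113 CPM) was below the highest value among mice 901 to 906 (138 CPM).

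**Figure D2:**
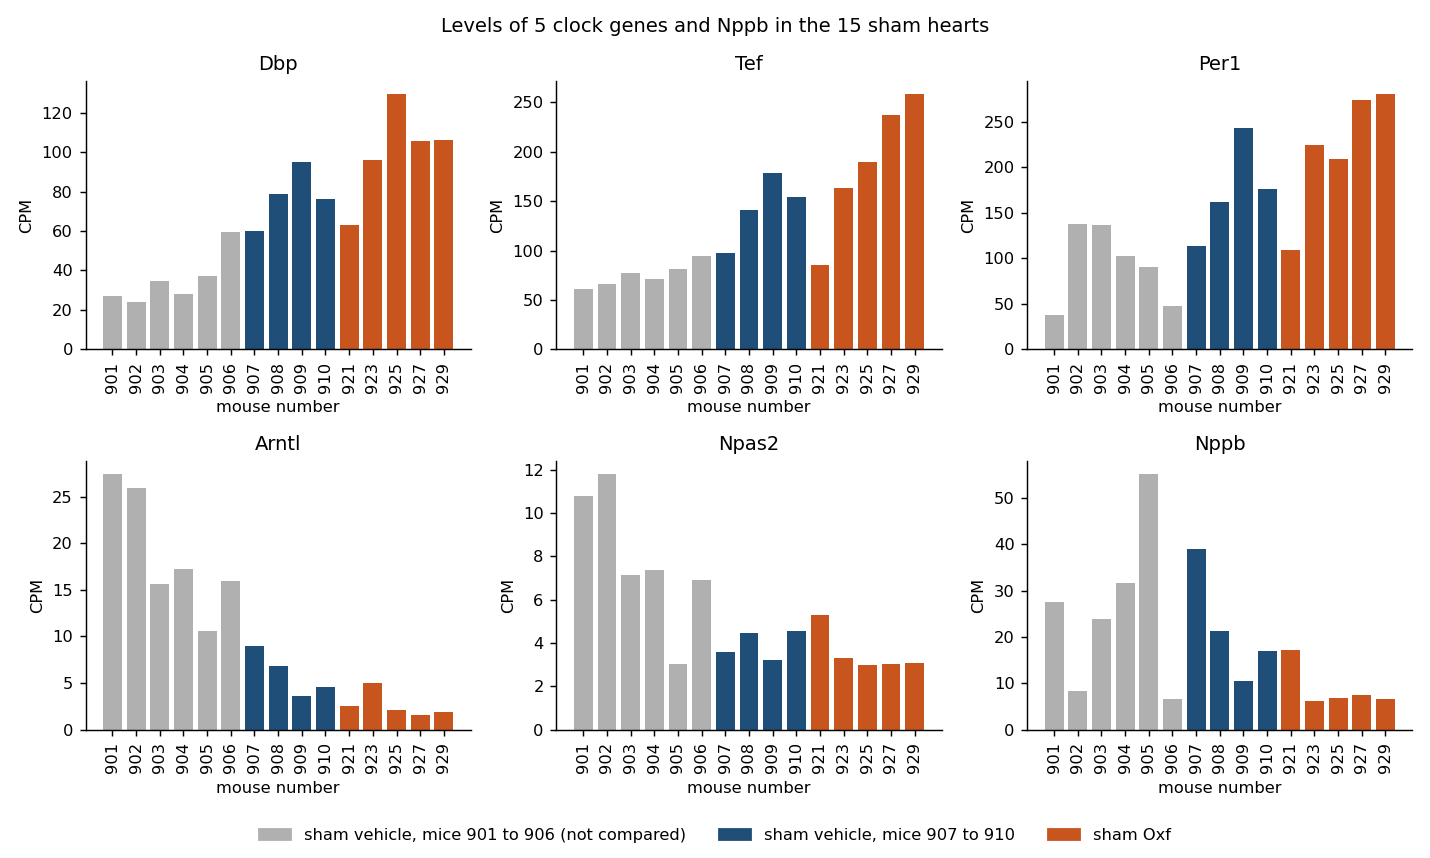
Levels (CPM) of Dbp, Tef, Per1, Arntl, Npas2 and Nppb in the 15 sham hearts, with 1 bar per mouse, ordered by mouse number, and colours for the groups. Arntl goes from 27.4 CPM in mouse 901 to 8.94 CPM in mouse 907 and is 1.59 to 5.02 CPM in the Oxf mice; Nppb exceeds 8 CPM in 1 of the 5 Oxf mice, mouse 921.

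The remaining clock difference was read from the fitted log2 fold changes, given as Oxf minus vehicle with the standard error (SE). Against the 10 vehicle mice the value for Dbp was 0.94 ± 0.32, and against mice 907 to 910 it was 0.37 ± 0.35. Tef stood at 0.87 ± 0.26 and 0.39 ± 0.28 in the same order, Per1 at 0.82 ± 0.36 and 0.34 ± 0.43, and Per3 at 1.14 ± 0.36 and 0.51 ± 0.39. For Arntl the pair was -2.36 ± 0.44 and -1.18 ± 0.38, and for Npas2 -0.83 ± 0.33 and -0.17 ± 0.35. Both comparisons share 9 libraries, so these pairs are values side by side and not independent of each other. Over the 11 genes of the Dbp side, the median was 0.34 with 9 above 0, beside a median of -0.03 over the 24273 genes tested.

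The other members of the loop are given in the same way, first with all 9 libraries. Ciart, a repressor of ARNTL, was at 1.13 ± 0.46 against all vehicle mice and 0.34 ± 0.47 against the chosen ones. Nr1d1 and Nr1d2, the repressors of Arntl, were at -0.14 ± 0.26 and -0.21 ± 0.26 against the chosen mice. Cry1 was at 0.22 ± 0.29 and Cry2 at 0.22 ± 0.21, and Nfil3, a repressor that competes with DBP, at -0.03 ± 0.31. Without mouse 921 the values against the chosen mice were 0.51 for Per1, -0.35 for Npas2, 0.59 for Ciart, -0.06 for Nr1d2, 0.43 for Cry1 and 0.41 for Cry2. With the clock score as covariate, Dbp (-0.08), Tef (-0.01), Per1 (-0.14), Ciart (-0.29) and Npas2 (0.05) changed sign. The score is built from these same genes, so their values with this covariate are no test of them. Bhlhe41, a repressor that binds E-boxes, was the clock list gene whose groups did not overlap: 15.02 to 19.5 CPM in the 4 vehicle mice and 20.2 to 27.0 CPM in the 5 Oxf mice. Clock itself was at 65.1 CPM in mouse 907 and 47.3 to 48.3 CPM in the other 3 vehicle mice, and at 34.3 to 52.0 CPM in the Oxf mice.

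Some promoters of clock genes hold the 2 elements named above, and 4 are printed as examples of windows with a match. In the windows of Dbp, Hlf, Per3, Nr1d1, Cry2 and Npas2 neither element was found, and of the 2 starts listed for Per1 and for Arntl only the printed one held an element. They come from RefSeq (build GRCm38.p6) and run from 250 bases before a start site to 50 bases after it, on the strand of the gene. Capitals mark the E-box, CACGTG, and the core AGGTCA of the element that NR1D proteins bind, which on the opposite strand reads TGACCT.

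Tef, chr15:81802423-81802722, plus strand, with an E-box: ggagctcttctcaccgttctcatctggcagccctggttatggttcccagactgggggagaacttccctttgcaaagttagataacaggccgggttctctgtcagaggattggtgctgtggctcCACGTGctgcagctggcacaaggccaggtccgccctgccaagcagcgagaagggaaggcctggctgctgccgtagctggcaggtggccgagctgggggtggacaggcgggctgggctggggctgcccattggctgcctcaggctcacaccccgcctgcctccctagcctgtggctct
Per1, chr11:69098699-69098998, plus strand, with an E-box and a core on the other strand: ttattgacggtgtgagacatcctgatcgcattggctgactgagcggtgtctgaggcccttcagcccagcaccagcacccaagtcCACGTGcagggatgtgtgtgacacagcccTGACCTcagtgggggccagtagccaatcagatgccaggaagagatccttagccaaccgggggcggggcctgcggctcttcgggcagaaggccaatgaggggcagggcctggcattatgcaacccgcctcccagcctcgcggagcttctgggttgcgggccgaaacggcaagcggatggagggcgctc
Bhlhe41, chr6:145865371-145865670, minus strand, with an E-box: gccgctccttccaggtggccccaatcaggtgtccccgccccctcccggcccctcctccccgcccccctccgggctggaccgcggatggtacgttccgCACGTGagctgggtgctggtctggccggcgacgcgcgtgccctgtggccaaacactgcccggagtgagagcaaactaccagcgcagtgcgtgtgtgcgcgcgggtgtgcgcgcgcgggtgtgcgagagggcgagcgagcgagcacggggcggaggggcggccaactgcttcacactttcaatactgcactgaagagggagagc
Arntl, chr7:113207261-113207560, plus strand, with a core after the start: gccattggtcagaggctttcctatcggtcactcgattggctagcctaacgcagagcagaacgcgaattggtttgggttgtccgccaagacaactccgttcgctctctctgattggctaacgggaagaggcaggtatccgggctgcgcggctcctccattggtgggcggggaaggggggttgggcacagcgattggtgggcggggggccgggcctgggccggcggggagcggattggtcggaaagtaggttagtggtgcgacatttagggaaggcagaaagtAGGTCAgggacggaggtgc

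An E-box on either strand occurred in 4 of 10 matched genes of the Dbp side and in 1 of 5 of the Arntl side. The core AGGTCA occurred in 2 of 10 and in 3 of 5. Of all 32851 windows of this length in the table, 7.15% held the E-box and 16.3% the core. Among genes, with any of their starts, the shares were 8.09% and 18.1% of 27025. A match is a description of these letters in this window only.

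No gene passed an adjusted p of 0.05 between the Oxf mice and vehicle mice 907 to 910 (0 of 24273 genes, 0%; edgeR quasi-likelihood test, Benjamini-Hochberg adjustment). The smallest adjusted p was 0.789. Before adjustment, 1455 genes (5.99%) had a p under 0.05, with 804 higher (3.31%) and 651 lower (2.68%) in the Oxf mice. The threshold alone, at 5% of the genes tested, would give 1214. DESeq2 called 4 (Cfap43, Map2k2, Scarna6 and RP23-333P16.4, the last 2 outside the naming rule and named after their values were seen) of the 20006 genes to which it gave an adjusted p (0.02%), and limma voom called 0. Against all 10 vehicle mice edgeR also called 0 genes (0%), with a smallest adjusted p of 0.103 and 3054 genes (12.6%) at an unadjusted p under 0.05. The number of vehicle mice and their phase both differ between these comparisons, and their parts in the lower count cannot be told apart. Without mouse 921, 0 genes passed and 1084 had an unadjusted p under 0.05. Levels of the 2 groups did not overlap for 228 genes with higher values (0.939%) and 394 genes with lower values (1.62%) in the Oxf mice.

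Which differences against all vehicle mice were still of similar size was read from the 12 genes of smallest p in that wider comparison. Model or clone names, small RNA genes and genes under a mean of 1 log2 CPM were left out of the choice. Only values are given, because the genes were picked on libraries that both comparisons share. With mouse 921 included, the fold change of 4 genes was at least as large against mice 907 to 910. Frmd8, which encodes a protein that stabilises the iRhom and ADAM17 shedding complex, had 0.57 ± 0.12 against all and 0.63 ± 0.15 against the chosen vehicle mice (log2 ± SE). Cfap43, a gene of cilia and flagella, had 0.52 ± 0.11 and 0.67 ± 0.14. Egln2, an oxygen-sensing prolyl hydroxylase, had 0.45 ± 0.10 and 0.50 ± 0.13, and Slc2a8, a hexose transporter, had 0.58 ± 0.13 and 0.60 ± 0.17. Without mouse 921 the values against the chosen mice were smaller, at 0.49 for Frmd8, 0.55 for Cfap43, 0.42 for Egln2 and 0.38 for Slc2a8. The values against all vehicle mice without mouse 921 are not given here.

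For the other 8 genes the value was smaller against the chosen mice. Arntl had -2.36 ± 0.44 and -1.18 ± 0.38, and Wee1, a cell cycle kinase under clock control, had 1.01 ± 0.24 and 0.60 ± 0.27. Slc41a3, a magnesium transporter gene, stood at -0.76 ± 0.17 and -0.41 ± 0.18, and Bhlhe41 at 0.72 ± 0.16 and 0.45 ± 0.18. For Slc41a3 the value against the chosen mice was -0.22 without mouse 907, -0.21 with the clock score as covariate and -0.24 with the log2 7SL share as covariate. The 7SL covariate gave 0.22 for Bhlhe41, and the clock covariate, which itself holds Arntl, gave -0.76 for Arntl. Slc46a3, a lysosomal transporter, had 0.82 ± 0.16 and 0.58 ± 0.19, with 5.08, 5.45, 5.36 and 4.97 CPM in the 4 vehicle mice and 6.83, 8.17, 6.95, 8.57 and 8.56 CPM in the Oxf mice, so that its groups did not overlap. Cald1, a regulator of smooth muscle contraction, had -0.53 ± 0.12 and -0.38 ± 0.14, also without overlap. Bmf, a pro-apoptotic BCL2 family gene, had 0.56 ± 0.12 and 0.50 ± 0.16, and Tbc1d2b, a RAB GTPase regulator, 0.43 ± 0.10 and 0.38 ± 0.12.

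**Figure D3:**
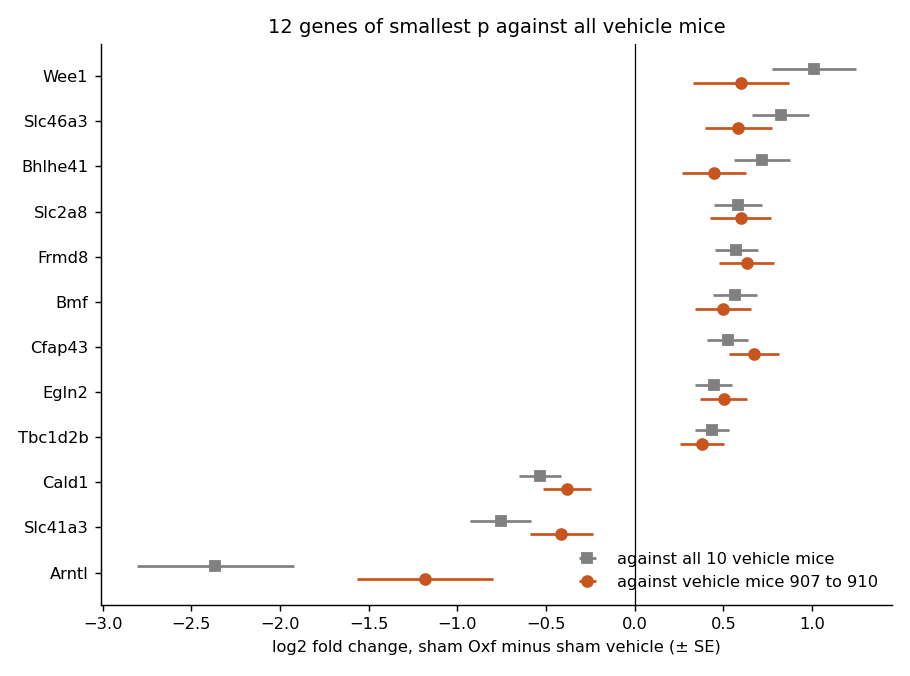
Log2 fold change, sham Oxf minus sham vehicle, of the 12 genes of smallest p against all vehicle mice; squares are against all 10 vehicle mice, circles against mice 907 to 910, and bars are ± SE. Arntl moves from -2.36 to -1.18 and Wee1 from 1.01 to 0.60, while Cfap43, Frmd8, Egln2 and Slc2a8 have circles at or beyond their squares. Mouse 921 is included, and model or clone names and small RNA genes were left out of the choice.

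The 16 genes of smallest p outside the clock lists are given as values, since none passed adjustment. Of the 16, 14 were higher in every Oxf mouse than in any of the 4 vehicle mice, 1 was lower in every Oxf mouse, and 1 overlapped. Over all genes tested, 0.939% were higher and 1.62% lower without overlap. The 16 were selected by their p in this contrast, so these counts are a description. Cfap43 (ENSMUSG00000044948, chromosome 19, 47736857 to 47919287, GRCm38) was at 7.69, 7.10, 5.67 and 7.18 CPM in the vehicle mice and at 14.8, 9.25, 10.8, 10.1 and 10.4 CPM in the Oxf mice. Mouse 921 was the highest. The log2 fold change was 0.67 ± 0.14 (edgeR adjusted p 0.789), and 0.55 ± 0.12 without mouse 921. DESeq2 gave it an adjusted p of 0.00783. It overlaps 5 annotated genes, among them Gsto1 and Itprip, and the use of strand in counting is not given in the sources used here.

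Map2k2, the MAP kinase kinase MEK2 of growth factor signalling (ENSMUSG00000035027, chromosome 10, 81105915 to 81133975), was at 30.6, 27.9, 23.4 and 27.0 CPM in the vehicle mice and at 50.9, 33.0, 51.9, 39.5 and 37.8 CPM in the Oxf mice. Every Oxf mouse was above every chosen vehicle mouse, but mice 901 to 906 were at 29.6 to 38.9 CPM and overlapped the Oxf range. The log2 fold change was 0.65 ± 0.14 (edgeR adjusted p 0.789), 0.58 without mouse 921 and 0.46 ± 0.12 against all vehicle mice. DESeq2 gave an adjusted p of 0.0326. Zbtb7a, a transcriptional repressor that lies beside Map2k2 on chromosome 10 (81135220 to 81152995), was at 38.9 to 45.8 CPM in the vehicle mice and 48.5 to 72.6 CPM in the Oxf mice.

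Frmd8 (ENSMUSG00000024816, chromosome 19, 5849702 to 5875274) was at 10.0, 12.2, 11.9 and 11.4 CPM in the vehicle mice and at 24.3, 16.9, 14.2, 15.5 and 17.3 CPM in the Oxf mice. Its level in mice 901 to 906 was 10.8 to 15.6 CPM. The antisense gene Frmd8os overlaps it. Without mouse 921 the log2 fold change was 0.49 ± 0.14.

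Ifi27l2a, an interferon-inducible gene (ENSMUSG00000079017, chromosome 12, 103442167 to 103443680), had the widest fold change of the 16, -2.40 ± 0.63 (edgeR adjusted p 0.789). Its level was 6.30, 12.3, 2.6 and 33.7 CPM in the vehicle mice and 0, 4.10, 3.67, 2.05 and 2.97 CPM in the Oxf mice. The 2 groups overlapped, and mouse 910 was far above the other vehicle mice. The value ranged from -2.76 to -1.45 over the 9 fits that each left out 1 library. A list of 14 other interferon-inducible genes had 0 members at an unadjusted p under 0.05, and 10 of them had fold changes below 0.

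Of the other 12 genes, Zbtb7a included, 11 had fold changes between 0.43 and 0.69 and St3gal6 was below 0. Mxd1, an antagonist of MYC, was at 6.99 to 7.65 CPM in the vehicle mice and 8.81 to 13.6 CPM in the Oxf mice. Irf2bp1 and Irf2bpl, corepressor genes of the IRF2 binding family, were at 10.4 to 12.7 against 13.2 to 21.9 CPM and at 32.2 to 42.4 against 46.4 to 75.7 CPM. Nab2, a corepressor of EGR proteins, was at 7.06 to 8.50 against 9.43 to 11.3 CPM.

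The remaining genes of the 16 have other roles. Ddx54, an RNA helicase, was at 13.5 to 14.4 CPM in the vehicle mice and 16.4 to 31.3 CPM in the Oxf mice. Lrrc32, which tethers latent TGF-beta at the cell surface, was at 11.7 to 17.4 against 18.8 to 41.6 CPM, and Slc2a8 at 6.43 to 7.54 against 8.17 to 16.4 CPM. In these 3 genes mouse 921 was the highest, and their fold changes went from 0.57, 0.69 and 0.60 to 0.38, 0.42 and 0.38 without it. Egln2 was at 22.3 to 25.01 against 25.6 to 41.0 CPM, Trim8, a ubiquitin ligase gene, at 25.05 to 29.5 against 33.2 to 45.3 CPM, and Rps6ka4, the kinase MSK2, at 13.1 to 16.2 against 16.9 to 29.1 CPM. Fold changes also fell without mouse 921 for Rps6ka4 (0.52 to 0.37), Mxd1 (0.55 to 0.45) and Egln2 (0.50 to 0.42). St3gal6, a sialyltransferase, was the gene with lower values, at 20.0 to 23.5 against 11.6 to 17.5 CPM (log2 fold change -0.48 ± 0.14, and -0.40 without mouse 921).

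**Figure D4:**
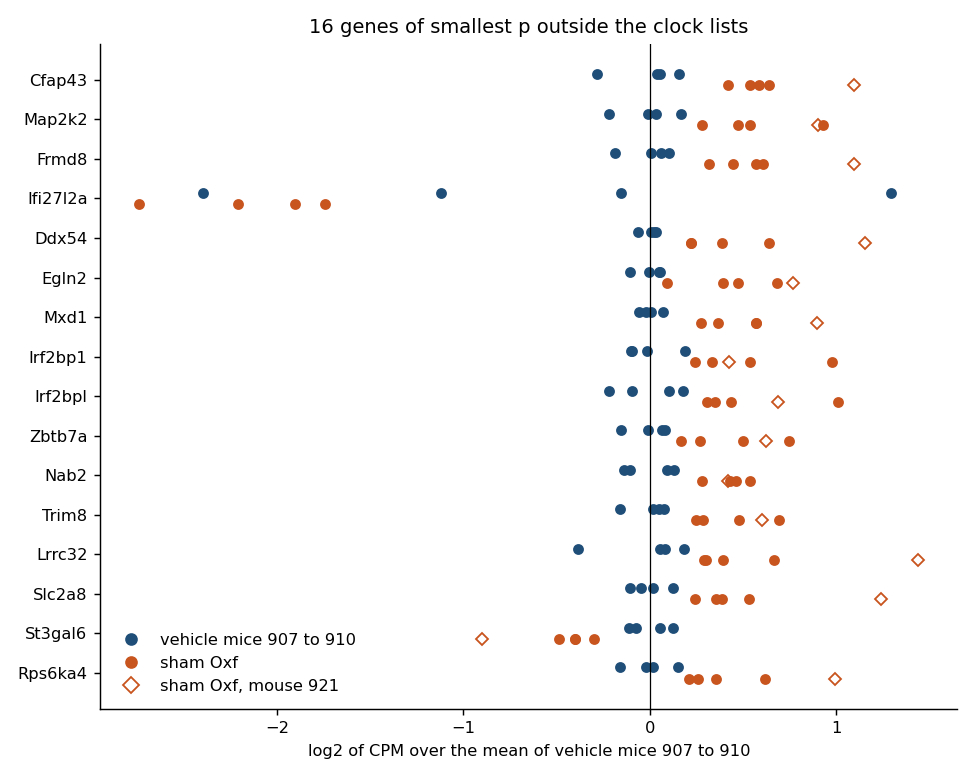
Log2 of CPM over the mean of vehicle mice 907 to 910 for the 16 genes of smallest p outside the clock lists, with 1 point per mouse and mouse 921 as an open diamond; Ifi27l2a in mouse 921, at 0 CPM, is not drawn. For 14 genes the Oxf points lie above the vehicle points, for St3gal6 below them, and for Ifi27l2a the groups overlap. Model or clone names, small RNA genes and genes under a mean of 1 log2 CPM were left out of the choice.

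Remodelling genes were taken from a list of 10 hypertrophy genes. No member passed adjustment, and the list median was -0.07 beside -0.03 over all genes. At an unadjusted p under 0.05, 2.68% of all genes tested were lower and 3.31% higher, and of these 10 genes 1 was lower. That gene was Nppb, which encodes B-type natriuretic peptide, a hormone that ventricular muscle releases under wall stress (ENSMUSG00000029019, chromosome 4, 147985788 to 147987205). It was at 39.1, 21.4, 10.5 and 16.9 CPM in the vehicle mice and at 17.2, 6.28, 6.75, 7.43 and 6.64 CPM in the Oxf mice. Mouse 921 lay within the vehicle range and the other 4 Oxf mice lay below it. The log2 fold change was -1.32 ± 0.48 (edgeR adjusted p 0.789), -1.70 ± 0.51 without mouse 921, and -1.45 ± 0.42 against all vehicle mice (edgeR adjusted p 0.186).

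The 7SL share is set beside Nppb here, and a link between them was not tested. The 4 Oxf mice of low Nppb had 7SL shares of 1.83% to 3.66%, and mouse 921 had 10.3%. Among the vehicle mice outside the comparison, the lowest Nppb levels were 6.56 CPM in mouse 906 and 8.36 CPM in mouse 902, whose 7SL shares were 2.30% and 4.19%. Mouse 909, with the lowest Nppb of the chosen vehicle mice, had the highest 7SL share of the 4, 12.5%. Mouse 910, with the lowest share of the 4, 5.33%, had more Nppb than mouse 909. With the log2 7SL share as covariate the fold change of Nppb was -0.71, and with the clock score as covariate it was -0.88 ± 0.42. Nppa, the atrial peptide gene next to Nppb, was at 993, 398, 235 and 534 CPM in the vehicle mice and at 348, 248, 933, 30.4 and 429 CPM in the Oxf mice, with a fold change of -0.44 ± 0.63. Without mouse 907 that value was 0.03. Nppa was highest in the mice with the most of the atrial gene Sln: mouse 907 had 94.0 CPM of Sln, mouse 925 had 52.1 CPM, and mouse 927, with the least Nppa, had 1.62 CPM.

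The summed level of 4 atrial markers was 419 to 1689 CPM in the vehicle mice and 32.4 to 1135 CPM in the Oxf mice, and both groups spanned a wide range. None of these 4 genes had an unadjusted p under 0.05. In bulk tissue, fewer cells of a type and less RNA per cell cannot be told apart. The part of atrial tissue in the Nppa and Nppb values was not tested. The other hypertrophy genes, among them Myh7 (0.07), Acta1 (0.15) and Ankrd1 (-0.22), had fold changes between -0.44 and 0.18.

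Among the 16 genes of the fibrosis list, 0 had an unadjusted p under 0.05, and the median was 0.11 where the mean score differed by -0.01. Postn, a matrix protein of activated fibroblasts, had the smallest p of this list, at 14.4 to 34.0 CPM in the Oxf mice and 15.97 to 50.9 CPM in the vehicle mice (log2 fold change -0.57 ± 0.33). The inflammation list also had 0 of 13 tested genes at an unadjusted p under 0.05, with a median of -0.21. Its gene of smallest p was Ccl2, a monocyte chemokine, at 0 to 1.22 CPM in the Oxf mice and 0.630 to 1.73 CPM in the vehicle mice.

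In 3 stress lists most genes had fold changes below 0, as had 13112 of all 24273 genes tested, and none passed adjustment. In the antioxidant list 11 of 13 genes had fold changes below 0 (median -0.19). At an unadjusted p under 0.05, 2.68% of all genes tested were lower, and of these 13 genes 1 was lower. This was Prdx1, a peroxidase, at 68.2, 26.8, 29.7 and 30.1 CPM in the vehicle mice and at 24.1, 19.6, 22.5, 16.2 and 17.0 CPM in the Oxf mice (log2 fold change -0.96 ± 0.35, edgeR adjusted p 0.789). The groups did not overlap, and mouse 907 was far above the rest. Without mouse 907 the value was -0.54. In the list of endoplasmic reticulum stress genes 11 of 12 were below 0 (median -0.30), and Dnajb9, a chaperone gene, had -0.71 ± 0.30, with 6.51 to 9.94 CPM in the Oxf mice and 8.88 to 16.7 CPM in the vehicle mice. In the heat shock list 8 of 9 were below 0 (median -0.31), and 0 had an unadjusted p under 0.05. Mouse 921 lay far below the other Oxf mice in the last 2 lists. The score of the endoplasmic reticulum list, its mean log2 CPM, was 1.71 in mouse 921, 3.35 to 3.89 in the other Oxf mice and 3.67 to 4.10 in the vehicle mice. The difference in score was -0.63 with mouse 921 and -0.25 without it, and for heat shock genes -0.42 and -0.20. The antioxidant score differed by -0.30, and by -0.06 without mouse 907.

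Oxalate handling was represented by 8 tested genes of 12, with a median of 0.16 and 5 above 0, although the mean score of the list had the other sign (difference -0.08). Slc26a6, an anion exchanger that carries oxalate (ENSMUSG00000023259, chromosome 9, 108853283 to 108913049), was at 8.98, 9.92, 12.3 and 9.57 CPM in the vehicle mice and at 23.3, 11.5, 10.2, 12.5 and 14.8 CPM in the Oxf mice. The groups overlapped and mouse 921 was the highest. The log2 fold change was 0.50 ± 0.21 (edgeR adjusted p 0.793), and 0.26 ± 0.19 without mouse 921. Grhpr, Ldha and Ldhb, enzymes of glyoxylate and lactate, stood at -0.17 each.

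Potassium channel genes had 8 of 10 values above 0 and a median of 0.29, beside 46% above 0 and a median of -0.03 over all genes. At an unadjusted p under 0.05, 2 of the 10 were higher and 0 lower, beside 3.31% and 2.68% of all genes. The score of this list differed by 0.22, by 0.23 without mouse 921 and by 0.22 without mouse 907. The groups overlapped in it, with 4.65 to 5.14 in the Oxf mice and 4.64 to 4.82 in the vehicle mice. Mice 901 to 906 reached 4.95. Kcnh2, the ERG channel of repolarisation (ENSMUSG00000038319, chromosome 5, 24319589 to 24351604), was at 58.9, 52.6, 62.8 and 54.6 CPM in the vehicle mice and at 81.1, 76.8, 103.6, 73.6 and 85.3 CPM in the Oxf mice. The groups did not overlap, the log2 fold change was 0.55 ± 0.23 (edgeR adjusted p 0.789), and mice 901 to 906 ranged from 38.5 to 96.6 CPM. With the log2 7SL share as covariate it was 0.25. Kcnj2 (-0.27) and Kcnk3 (-0.08) were below 0.

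Several other lists had a single gene at an unadjusted p under 0.05 or none, beside 5.99% of all genes tested. Tiparp, a target of the aryl hydrocarbon receptor, was at 12.1 to 15.6 CPM in the vehicle mice and 5.79 to 11.3 CPM in the Oxf mice (-0.55 ± 0.21), lower in every Oxf mouse. In the fatty acid oxidation list 10 of 20 genes were above 0 (median -0.04), and Angptl4, an inhibitor of lipoprotein lipase, had -1.45 ± 0.69, with 0 to 4.51 CPM in the Oxf mice and 2.28 to 14.4 CPM in the vehicle mice. Glucocorticoid response genes had a median of -0.03, with 0 of 10 at an unadjusted p under 0.05. Immediate early genes had a median of 0.12 (mean score -0.03), with 0 of 15, and Ier2, of smallest p there, was at 0.51 ± 0.27. Rbm3, an RNA-binding protein induced by cold, was at 38.4 to 48.7 CPM in the vehicle mice and 28.6 to 37.7 CPM in the Oxf mice, lower in every Oxf mouse (-0.37 ± 0.19), while Cirbp, the other gene of that list, stood at 0.13.

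**Figure D5:**
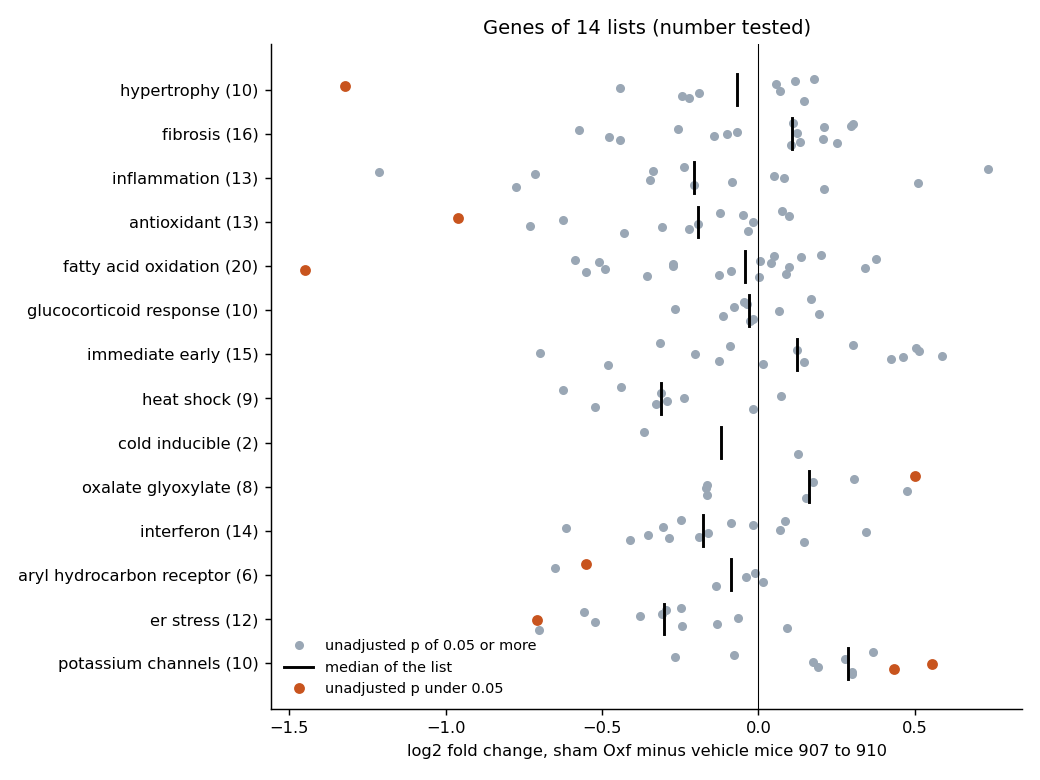
Log2 fold change, sham Oxf minus vehicle mice 907 to 910, of each tested gene of 14 lists, with the list median as a black line and genes at an unadjusted p under 0.05 in orange. The medians run from -0.31 for heat shock genes to 0.29 for potassium channel genes, and the orange points include Nppb at -1.32, Angptl4 at -1.45 and Kcnh2 at 0.55.

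Markers of other cell types gave 2 genes at an unadjusted p under 0.05, namely 1 of 6 mural and 1 of 10 macrophage markers. Each of the other marker lists gave 0, and over all genes tested 5.99% had such a p. Pdgfrb, a receptor of mural cells, was at 69.5 to 81.2 CPM in the vehicle mice and 85.5 to 132.0 CPM in the Oxf mice (0.43 ± 0.19), while the summed level of 6 mural markers was 476 to 685 CPM in the vehicle mice and 376 to 624 CPM in the Oxf mice. C1qc, a complement gene of macrophages, had 0.55 ± 0.26, with 11.6 to 36.0 CPM in the Oxf mice and 9.95 to 19.1 CPM in the vehicle mice. Mouse 921 was the highest, and without it the value was 0.29 ± 0.24. Its partners C1qa and C1qb stood at -0.07 and -0.22. The 6 fibroblast markers were all below 0 (median -0.43), with summed levels of 629 to 1449 CPM in the Oxf mice and 702 to 1863 CPM in the vehicle mice. Their mean log2 CPM differed by -0.35, and by -0.09 without vehicle mouse 907. A shared sign was not particular to fibroblast markers. All 7 mesothelial (median -0.59) and all 4 atrial markers (-0.77) were below 0, and all 8 lymphoid (0.39) and all 5 blood markers (0.58) were above 0. Adipose markers summed to 0.0474 to 191 CPM in the Oxf mice and 4.36 to 442 CPM in the vehicle mice, and lymphoid markers to 6.38 to 769 and 6.37 to 212 CPM. Endothelial markers summed to 811 to 1258 and 906 to 1300 CPM, and Schwann cell markers to 15.97 to 31.9 and 16.4 to 27.2 CPM. The ranges of all these sums overlapped. Blood markers summed to 5.76 to 108 CPM in the Oxf mice and 12.7 to 38.1 CPM in the vehicle mice, skeletal muscle markers to 4.40 to 29.3 and 4.83 to 6.84 CPM, and liver markers to 12.4 to 85.2 and 10.3 to 40.1 CPM. For mesothelial markers the sums were 24.4 to 110.1 and 47.0 to 107.1 CPM, and for valve and cartilage markers 20.0 to 67.2 and 27.4 to 72.7 CPM. In mouse 921 several low genes were at 0 CPM, among them Cytl1, S100b, Ccl2, Angptl4 and Ifi27l2a.

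Small nuclear, small nucleolar and ribosomal RNA genes had a larger share of low values than coding genes. These types were picked after their values were seen, and not every short RNA type did the same: of 174 microRNA genes tested, 4 were lower (2.30%) and 9 higher (5.17%). Of 172 small nuclear RNA genes tested, 33 were lower (19.2%) and 5 higher (2.91%) in the Oxf mice at an unadjusted p under 0.05, whereas of 15574 coding genes 424 were lower (2.72%) and 488 higher (3.13%). Of 139 small nucleolar RNA genes 22 were lower and 6 higher, and of 25 ribosomal RNA genes 7 were lower and 0 higher. Small nuclear RNA genes took 0.211% to 0.719% of the counts in vehicle mice 907 to 910, 0.249% in mouse 921 and 0.060% to 0.0864% in the other 4 Oxf mice. With the log2 7SL share as covariate 13 small nuclear RNA genes were lower (7.56%) and 7 higher (4.07%), beside 5.89% and 6.25% of coding genes. Without mouse 921 the counts were 42 (24.4%) and 2 (1.16%), beside 2.23% and 2.28% of coding genes. Without vehicle mouse 909 they were 15 (8.72%) and 2 (1.16%), beside 2.97% and 2.24% of coding genes. Among the fits that each left out 1 library, 42 was the highest lower count and 15 the lowest. Many of these genes are near-identical copies, so their single values are uncertain.

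Antisense genes had the opposite balance. Of 1450 tested, 67 were higher (4.62%) and 8 lower (0.552%). Without mouse 921 the counts were 24 (1.66%) and 8 (0.552%), and with the 7SL covariate 73 (5.03%) and 151 (10.4%). Long intergenic RNA genes gave 39 higher (4.06%) and 9 lower (0.938%) of 960, 13 and 10 without mouse 921, and 54 and 76 with the 7SL covariate. Over all genes tested 3.31% were higher and 2.68% lower. These shares were 1.99% and 2.48% without mouse 921, and 6.18% and 6.56% with the 7SL covariate, so the background moved with the setting too. The 84 cytosolic ribosomal protein genes gave 0 higher and 7 lower, with a median of -0.22. That median was 0.03 without mouse 907 and 0.20 with the 7SL covariate, where 8 were higher and 0 lower, so the direction for this family turned with the setting. The 13 protein genes of the mitochondrial genome gave 2 lower, with a median of -0.49. Without mouse 909 these were 0 lower and -0.25, without mouse 925 they were 5 lower and -0.84, and with the 7SL covariate 0 lower and -0.18.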

How the data were processed

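RNA was extracted with the RNeasy kit from the ventricular myocardium of each mouse and sequenced on an Illumina NovaSeq instrument, per the labels. The authors deposited raw gene counts in 1 table of 45513 genes, all named, with 0 columns left unmapped. FastQC 0.11.7, MultiQC 1.9, STAR 2.6.1d, Subread, featureCounts 1.6.3 and mm10 are listed in the submitters' processing notes. The annotation and the use of strand are not given in the sources used here. Counts of the 7SL copies differed by at most 0.0113% of their mean, so values of multicopy genes are uncertain. The 7SL share sums these copies, and a read counted at each would enter it more than once, which was not tested. Positions come from GENCODE M21 (GRCm38), where 45465 identifiers were found, and promoters from RefSeq.

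All 28 libraries entered 1 fit in R 4.3.3 with edgeR 4.0.16 (TMM factors, estimateDisp, robust glmQLFit, glmQLFTest). The fit had 5 means (4 labelled groups, with vehicle mice 907 to 910 apart) and 23 residual degrees of freedom. The filterByExpr function, by labelled group with a minimum count of 10, kept 24273 genes, and adjusted p-values are Benjamini-Hochberg values over these. SE is the absolute log2 fold change over the square root of F. List scores are means of log2 CPM with a prior count of 2. Depth in these 9 libraries was 19.8 to 51.3 M counts (M, mega), and the spread between mice limits the precision. Each library is 1 mouse, so p-values measure the spread between mice.

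Genes were named by rule: the clock lists; the 16 genes of smallest p whose mean log2 CPM is 1 or more; 12 of smallest p against all vehicle mice; the gene of smallest p in each of 30 lists (280 genes, 272 tested); and Nppb and Nppa. For the 16 and the 12, model or clone names, small RNA genes and genes with a mean log2 CPM under 1 were left out. The compared mice, the lists and the tests were chosen with earlier results of these data known. Alternatives were DESeq2 1.42.0 (test or size factors), limma 3.58.1 voom with sample weights, upper quartile scaling, other filters, fits of fewer libraries, other sets of vehicle mice, clock or 7SL covariates, and each library left out. Gene types were counted after the data were seen. The edgeR steps were tested on simulated data. An item withheld from this text is not reported here.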

Additional observations from a re-analysis of the deposited data

Results flagged for a closer look

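For 103 measures (library measures, list scores and named genes), the highest and the lowest library of each group were set against the nearest of the others. The gap was divided by the whole range of that group. Of 206 comparisons 26 exceeded Dixon's 95% limit (0.71 for 5 mice, higher for 4), where about 10.3 (1 in 20) are given by chance. Mouse 921 accounts for 18 and other mice for 8.

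Mouse 921 lay far below the other Oxf mice in the number of genes with a count (gap 0.796 of the range), the clock score (0.72), the score of the Dbp side of the clock (0.766), heat shock genes (0.754), endoplasmic reticulum stress genes (0.754) and valve and cartilage markers (0.763). The same library was lowest in Cry2 (0.776, at 16.6 CPM against 39.9 in the next mouse) and S100b (0.727, at 0 CPM). It lay far above the others in the 7SL share (0.784), the small nuclear RNA share (0.86) and skeletal muscle markers (0.87). It was also highest in Cfap43 (0.723), Lrrc32 (0.756), Slc2a8 (0.778), Nppb (0.895), Npas2 (0.86), Myh2 (0.981, at 3.51 CPM) and Hbb-bt (0.966, at 14.6 CPM).

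Vehicle mouse 907 was far above the other 3 in the antioxidant score (0.86), the fatty acid oxidation score (0.943), Prdx1 (0.92, 68.2 CPM against 30.1) and Clock (0.946, 65.1 CPM against 48.3). Vehicle mouse 908 stood apart in Ucp1, the uncoupling protein of brown fat (0.935, 27.8 CPM against 1.81). Among the Oxf mice, mouse 923 was highest in Arntl (0.732, 5.02 CPM against 2.51), mouse 925 in the fibroblast gene Dcn (0.816, 216 CPM against 137) and mouse 929 in Klf15 (0.717, 59.5 CPM against 41.6).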

How the results depend on the processing

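No paired analysis was possible because the mouse numbers are not shared between the groups. Of 22 alternatives, 20 gave 0 genes at an adjusted p under 0.05; DESeq2 gave 4 and the log2 7SL share as covariate gave 5 (Igkv12-46, Igkv12-41, Igkv8-30, Ighv5-17 and Ighv1-80, immunoglobulin variable genes named after their values were seen). By DESeq2 Cfap43 was at 0.65 and Map2k2 at 0.63, with adjusted p of 0.00783 and 0.0326; over the 22 the adjusted p of both reached 1.00. The 1455 genes at an unadjusted p under 0.05 became 2546 with limma voom, 2399 with no filter, 941 in a fit of the 9 libraries, 951 with vehicle mice 908 to 910, 3054 with all 10 and 3093 with the 7SL covariate. Leaving out 1 library gave 906 (mouse 907) to 2033 (mouse 925). Of these genes 55.26% were higher in Oxf mice, but 43.77% with no filter, 34.22% in the fit of the 9 libraries, 44.22% in that of the 15 sham libraries, 66.46% with mice 908 to 910 and 67.9% with the clock covariate; without mice 907, 909 or 921 the share was 66.56%, 44.95% or 44.56%. Direction turned for Cd8a (-0.42) and Hbb-bt (-1.77) with limma voom, Nppa with mice 908 to 910 (0.033), Myh2 with mice 906 to 910 (-5.00) and all 10 (-4.01), Klf15 with the clock covariate (-0.00141) and Tnni3 with the 7SL covariate (0.015). Among clock genes, which make up the clock score, direction turned with the clock covariate for Dbp (-0.08), Tef (-0.01), Per1 (-0.14), Per2 (-0.38), Ciart (-0.29) and Npas2 (0.05). With the 7SL covariate it turned for Cry2 (-0.09), Per2 (-0.20), Per3 (-0.08), Ciart (-0.23) and Nr1d2 (0.01). It also turned for Nr1d2 with limma voom (0.09) and all 10 mice (0.16), Nr1d1 with all 10 mice (0.10), Per2 without mouse 907 (-0.04) and Nfil3 in 8 of 22 alternatives. The 7SL covariate gave -0.09 for Rbm3, -0.41 for Prdx1, -0.43 for Dnajb9, 0.37 for Slc46a3 and -2.61 for Angptl4. With each library left out, Nppa ranged from -1.03 to 0.033 (without mouse 907), Ucp1 from -4.60 to 0.28 (without mouse 908) and Hbb-bt from -1.55 (without mouse 921) to 2.28. The causes were not tested. Differences in library measures kept their sign. Depth was lowest in mouse 921, with 19.8 M counts and 15879 genes with a count. Vehicle mouse 902 had 22.3 M counts and 31238 such genes. The cause of the low number in mouse 921 was not tested.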
